A study of Rattus norvegicus with 3 samples.

Results

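The intronic peaks of the olanzapine library are the peaks of histone H3 lysine 4 dimethylation (H3K4me2) that the authors' annotation placed in an intron, on chromosomes 1 to 20. They were taken as every row of the olanzapine peak list with the class intronic on these chromosomes, and no measured value entered the choice. There were 977 such peaks among 6998 olanzapine peaks on chromosomes 1 to 20 (14.0%, 95% Wilson interval 13.2 to 14.8%), 7128 olanzapine peaks in all and 26577 peaks in both lists of the series. Chromatin immunoprecipitation with sequencing (ChIP-seq) was performed on liver tissue of female Sprague-Dawley rats. The olanzapine library came from a rat given 3 mg/kg by mouth, the clozapine library from a rat given 20 mg/kg by mouth and the vehicle library from a rat given cookie dough pellets with no drug, all 2 times a day for 9 weeks, with 12 animals per group in the study. Drug went in with the pellet, except that clozapine was given by syringe once the rats avoided it. Both drugs are second generation antipsychotics, and all animals ate standard chow. The age of the animals is not given in the sources used here. There was 1 library per drug and no replicate, so no test between the drugs was possible. All intervals below are 95% Wilson intervals and cover the counting of peaks or genes only. Peaks of the vehicle library were not analysed here. Whether the vehicle library served as the control of the olanzapine list is not given in the sources used here. A peak in that list is thus not shown to differ, or not to differ, from an untreated liver. The lists carry no read numbers, and the number of reads behind a peak is unknown. The paper lists far fewer reads on the genome for the clozapine library than for the olanzapine library. Comparisons of these libraries below were not adjusted for this.

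H3K4me2 marks nucleosomes at promoters and at enhancers. A promoter is usually flanked by marked nucleosomes on both sides of the transcription start, so marked chromatin often reaches into the first intron. Introns also hold enhancers, which in liver are bound by factors such as HNF4A, the FOXA family and nuclear receptors.

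Some intronic peaks formed the inner member of a pair around a gene start. An upstream peak, which lies before the start of a gene, carries in the authors' annotation its distance to that start, so the distance of the intronic peak to the same start could be computed. In the olanzapine list 263 genes were named alone by an upstream peak, and 18 of them also had an intronic peak. In 12 of the 18 genes the intronic peak began within 1000 bp of the start, at 239 to 997 bp. The upstream and intronic peaks of these 12 genes were separated by 824 to 1626 bp (median 1037 bp). Nqo1, a quinone reductase of the oxidative stress response, had an upstream peak that ended 618 bp before the start and an intronic peak of 388 bp (Rnor_6.0 chr19:38422449-38422836) that began 239 bp after it. Bcl6, a transcriptional repressor, had the intronic peak chr11:80256337-80257224 (888 bp) at 547 bp after the start, with the upstream peak 864 bp before it. Acsl1, which activates long-chain fatty acids, had the intronic peak chr16:48980089-48981037 (949 bp) at 943 bp after the start, with an upstream peak of its own 684 bp before it. In S1pr1, a receptor for sphingosine 1-phosphate, the intronic peak chr2:218657463-218657785 (323 bp) began 976 bp after the start and the upstream peak ended 98 bp before it. No listed peak lay in the stretch that held the start in these genes, but the spacing of the list left no room for one. No peak of another class in the same gene lay nearer than 793 bp to an intronic peak. The shortest olanzapine peak covered 196 bp. Within gaps of 824 to 1626 bp a further peak at that spacing would not fit. The empty stretch therefore does not show whether the start itself was marked. In the remaining genes the distance was 1079 bp or more, and it was largest in Gsk3b and Kdm2a, at 46678 and 56679 bp. Gsk3b encodes a kinase that restrains glycogen synthesis, and Kdm2a encodes a histone demethylase.

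Promoter windows of 4 of these genes are shown, taken at the start given by RefSeq. They cover 250 bases before and 50 bases after that start on assembly GRCr8, which is a later build than that of the peaks. It was not examined whether both builds use the same start, so a window may not be the promoter that the paired peaks flank. For Acsl1 the window may border a coding exon, which was not examined. Capitals mark CpG dinucleotides.
Nqo1: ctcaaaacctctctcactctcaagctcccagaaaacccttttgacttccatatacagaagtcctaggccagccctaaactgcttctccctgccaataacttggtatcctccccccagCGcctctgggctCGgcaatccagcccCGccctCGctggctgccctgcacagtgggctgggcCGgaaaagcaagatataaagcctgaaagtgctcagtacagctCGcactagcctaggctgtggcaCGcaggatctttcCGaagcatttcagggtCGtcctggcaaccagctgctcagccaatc
Acsl1: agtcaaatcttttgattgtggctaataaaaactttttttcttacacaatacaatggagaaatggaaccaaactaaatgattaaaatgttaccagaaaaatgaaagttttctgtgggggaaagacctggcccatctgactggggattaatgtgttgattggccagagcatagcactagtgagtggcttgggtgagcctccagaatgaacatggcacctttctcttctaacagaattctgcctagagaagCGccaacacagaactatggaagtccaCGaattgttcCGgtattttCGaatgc
S1pr1: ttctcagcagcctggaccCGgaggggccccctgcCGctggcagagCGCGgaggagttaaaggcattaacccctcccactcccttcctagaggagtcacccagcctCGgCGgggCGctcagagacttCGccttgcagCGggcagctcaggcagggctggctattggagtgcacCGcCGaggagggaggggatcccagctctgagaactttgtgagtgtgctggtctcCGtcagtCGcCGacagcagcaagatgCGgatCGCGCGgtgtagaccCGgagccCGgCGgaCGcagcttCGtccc
Bcl6: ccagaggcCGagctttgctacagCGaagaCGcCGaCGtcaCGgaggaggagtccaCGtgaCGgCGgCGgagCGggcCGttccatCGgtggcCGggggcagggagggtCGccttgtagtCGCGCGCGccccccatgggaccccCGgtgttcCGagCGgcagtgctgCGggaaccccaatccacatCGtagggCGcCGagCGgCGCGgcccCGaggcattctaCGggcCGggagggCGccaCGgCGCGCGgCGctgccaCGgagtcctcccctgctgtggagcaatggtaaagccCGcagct
The 4 windows differed widely in CpG content. Bcl6 held 40 CpGs and S1pr1 held 23, against 9 in Nqo1 and 4 in Acsl1. The median over 15165 promoters of protein-coding genes was 16 CpGs (quartiles 5 and 26). The letters TATAAA occurred on either strand in the Nqo1 window and in no other window shown. They occurred in 11.8% of all promoters. The genes of this and the preceding paragraph were picked as examples after their values were seen.

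Intronic peaks of the olanzapine library often lay close to an edge of the host gene. The authors' intergenic peaks state their distance to the flanking genes, and both edges of 1921 genes could be recovered from these distances. Both edges were known for 131 intronic peaks in 117 genes. Of these peaks, 55 lay within 1000 bp of the nearer edge (42.0%, interval 33.9 to 50.5%), and 81.8% of the intronic, exonic and 5′ UTR peaks of the olanzapine list did so when pooled. The nearest was in Mrpl1, a mitochondrial ribosomal protein gene, at 54 bp. The median distance was 1914 bp (quartiles 356.5 and 26496.5). Of the clozapine intronic peaks with both edges known, 7 of 771 lay within 1000 bp (0.908%, interval 0.440 to 1.86%), with a median of 34062 bp. Host genes of the olanzapine peaks were shorter, with a median span of 70.9 kb against 169 kb for the clozapine peaks, so genes of like span were set side by side. In genes spanning over 50 kb the share was 29 of 85 olanzapine peaks (34.1%, interval 24.9 to 44.7%) and 3 of 659 clozapine peaks (0.455%, interval 0.155 to 1.33%). In genes up to 50 kb it was 26 of 46 olanzapine peaks (56.5%, interval 42.2 to 69.8%) and 4 of 112 clozapine peaks (3.57%, interval 1.40 to 8.82%). The intervals of the 2 libraries did not overlap in either span group. This measure was devised after the data were seen. It rests on genes with intergenic peaks on both sides, and on 1 library per drug. The lists also differed in peak length, and of 182 clozapine intronic peaks longer than 200 bp with known edges, 1 lay within 1000 bp.

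**Figure D1:**
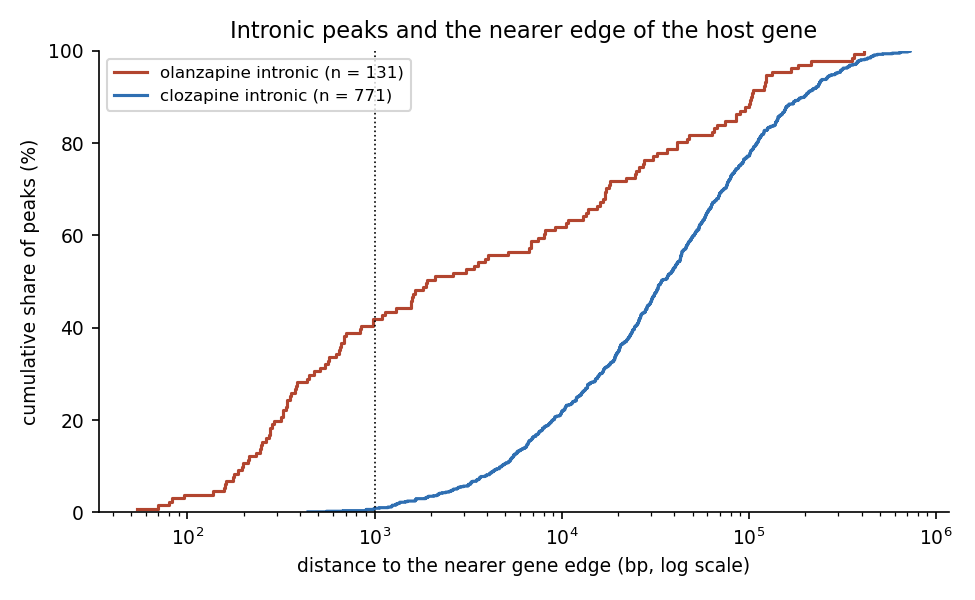
Cumulative share of intronic peaks (vertical axis, %) by the distance to the nearer edge of the host gene (horizontal axis, bp, log scale), for 131 olanzapine peaks in red and 771 clozapine peaks in blue. The dotted line marks 1000 bp, where the olanzapine curve had reached 42.0% and the clozapine curve 0.908%.

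The direction of a gene could be read only where a UTR peak was listed. In these genes, olanzapine intronic peaks within 1000 bp of an edge were found at the start and not at the end. Olanzapine 5′ UTR peaks themselves lay at the start, with 359 of 366 within 1000 bp of a known start edge. Genes with a listed peak at the start could thus enter more readily. Whether the contrast holds in other genes was not tested. Among 44 olanzapine intronic peaks with a known start edge, 10 lay within 1000 bp and 21 within 5000 bp of it (median 5660 bp). Among 29 with a known end edge, 0 lay within 1000 bp, which allows a share of up to 10.3% (3 counts of the total, not a Wilson limit), and 1 lay within 5000 bp (median 61647 bp). The list genes among the near-edge peaks included Cps1, which starts the urea cycle, with an 885 bp peak 619 bp from an edge. They included Igf1, a growth factor secreted by hepatocytes, with a 421 bp peak at 684 bp. Abcc2, a canalicular exporter of conjugates, had a 701 bp peak at 566 bp. The 55 peaks within 1000 bp of an edge had a median length of 395 bp and a median fold enrichment of 4.004. The 50 peaks more than 10000 bp from both edges had a median length of 325 bp and a median fold enrichment of 4.48.

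Intronic peaks had the lowest median length among the 4 main classes of the olanzapine list. Each peak carried a class as a whole. How a peak that touched both an exon and an intron was classed is not given in the sources used here. Class lengths may depend on that rule, which was not tested. Their median length was 397 bp (quartiles 248 and 691, range 196 to 3637). Exonic and splicing peaks had a median of 708 bp, upstream and 5′ UTR peaks 603.5 bp and intergenic peaks 497 bp. At most 200 bp were covered by 97 intronic peaks (9.93%, interval 8.21 to 12.0%), against 5.32% of all olanzapine peaks. The shortest length in the list, 196 bp, was shared by 84 intronic peaks. More than 1000 bp were covered by 110 intronic peaks (11.3%, interval 9.43 to 13.4%), against 22.4% of all olanzapine peaks and 30.1% of exonic and splicing peaks. Intronic peaks covered 526 kb in total, which was 10.3% of the length of all olanzapine peaks on chromosomes 1 to 20. Clozapine intronic peaks had a median length of 171 bp (quartiles 170 and 198), and 75.2% of them were at most 200 bp long.

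**Figure D2:**
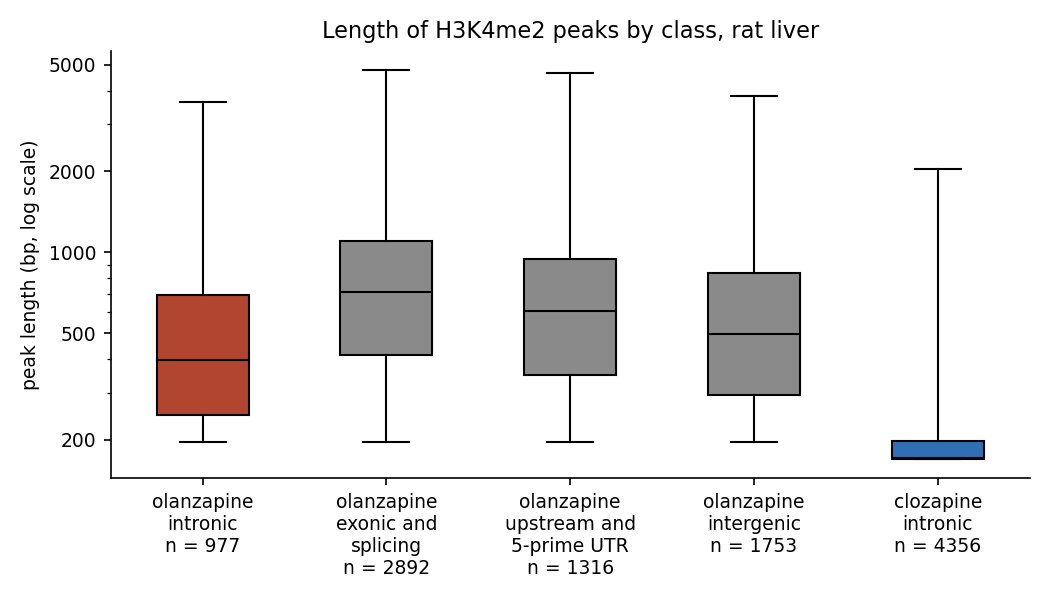
Length of peaks (vertical axis, bp, log scale) for the intronic, exonic and splicing, upstream and 5′ UTR, and intergenic classes of the olanzapine list and for clozapine intronic peaks. Boxes show the quartiles with the median as a line and whiskers show the whole range. The olanzapine intronic box has the lowest median of the 4 olanzapine classes, 397 bp.

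The height of intronic peaks was close to that of the other classes. Fold enrichment is the authors' ratio of the peak over a background that is not named in the sources used here. Its median was 4.26 in intronic peaks (quartiles 3.87 and 4.76, range 1.86 to 8.53), 4.28 in exonic and splicing peaks, 4.30 in upstream and 5′ UTR peaks and 4.31 in intergenic peaks. A fold enrichment of at least 5 was reached by 175 intronic peaks (17.9%, interval 15.6 to 20.4%), against 20.0% of all olanzapine peaks. A −log10 q of at least 5, the authors' measure of a peak after correction for multiple testing, was reached by 39 (3.99%, interval 2.93 to 5.41%), against 6.13% of all olanzapine peaks. Heights of intronic peaks showed no order by length. The median fold enrichment was 4.38 in peaks up to 200 bp, 4.36 up to 400 bp, 4.14 up to 1000 bp and 4.38 above that.

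The strongest intronic peaks by the authors' −log10 p were short and lay in genes of varied function. Banp, a nuclear matrix-binding protein, led with −log10 p 13.5 and fold enrichment 8.18 (chr19:54766917-54767334, 418 bp). Ctif, a translation initiation factor of the nuclear cap-binding complex, had −log10 p 13.0 and fold enrichment 8.02 (chr18:71488239-71488463, 225 bp). Ctns, the lysosomal cystine transporter, reached 8.07. The 12 strongest also included Dhrs7b, Homez, S1pr1, Camk2n1, Pam16, Atp6v1c1 and a pair of peaks in LOC257642. Dhrs7b is a peroxisomal reductase, Camk2n1 an inhibitor of a calmodulin-dependent kinase, Pam16 a part of the mitochondrial import motor and Atp6v1c1 a subunit of the vacuolar proton pump. The LOC257642 pair differed from the rest, with −log10 p of 12.6 and 12.1 but fold enrichments of 2.25 and 2.26 (chr14:46631798-46632025 and chr14:46630206-46630617). Only 7 intronic peaks had a fold enrichment under 3. The others were in Adgrl3, Tc2n, Depdc7, Nfrkb and Fh.

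The longest intronic peaks lay in genes of varied function. Hnf4a, the nuclear receptor that maintains hepatocyte identity, had the longest, 3637 bp at fold enrichment 5.32 (chr3:159927552-159931188), and the fourth longest, 2597 bp at 4.28 (chr3:159937270-159939866). The second longest was in LOC502176, 2939 bp. H6pd, which makes NADPH in the endoplasmic reticulum, had 2731 bp (chr5:167022177-167024907). Mat1a, the liver enzyme that makes the methyl donor S-adenosylmethionine, had 2405 bp (chr16:18691398-18693802). Lpin1, a phosphatidate phosphatase and transcriptional coactivator, had 2092 bp (chr6:41850933-41853024). Por, the electron donor of microsomal cytochromes P450, had 2090 bp (chr12:24044689-24046778). Smoc1, a secreted matrix protein, and Ddi2, an aspartic protease, had 2217 and 2048 bp. In all 10 intronic peaks were longer than 2000 bp.

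Most host genes had a single intronic peak. Of the 977 peaks, 946 named 1 gene, 30 named more than 1 and 1 carried a date in place of a name. In all 909 gene names were hosts, and 894 of them (98.3%) matched the RefSeq names. Of the 860 names from peaks that named 1 gene, 787 had 1 intronic peak, 64 had 2, 7 had 3, Slc7a2 had 4 and Pepd had 6. Thus 73 genes held 159 peaks. Rows that named more than 1 gene were left out of these counts. With them Ugt1a9 had 4 intronic peaks, and Mapre2, Sult2a6 and Lysmd1 also had more. The 83 neighbouring pairs within a gene had a median gap of 10105 bp (quartiles 1965 and 34968). In 4 pairs the gap was under 1000 bp, in 33 it was 1000 to 5000 bp and in 42 it was over 10000 bp, and the smallest gap was 801 bp, in Depdc7.

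Slc7a2 and Pepd showed contrasting layouts. Slc7a2, a cationic amino acid transporter, held 4 intronic peaks of 826, 300, 1373 and 528 bp within 16583 bp of chromosome 16 (54492865 to 54509447), with fold enrichments of 4.03, 4.84, 4.89 and 3.73. A 5′ UTR peak of 2777 bp followed at chr16:54510842-54513618. Pepd, the dipeptidase that releases proline, held 6 intronic peaks of 227 to 1182 bp spread over 274587 bp of chromosome 1 (90820773 to 91095359), with fold enrichments of 3.97 to 5.30. The first Pepd peak lay 103 bp from the left edge of the gene. In 7 genes 3 intronic peaks that named no other gene were listed. Rhobtb1, an atypical small GTPase, held them within 34268 bp, and Lmntd1 within 8763 bp. Ugt1a9, a glucuronidation enzyme of the UGT1A locus, whose members share exons, held them within 32458 bp with a highest fold enrichment of 6.85. Prph2, a photoreceptor disc protein, held them over 189665 bp, Pde4d, a cyclic AMP phosphodiesterase, over 151746 bp, Pard3, a cell polarity protein, over 365475 bp and Mapre2, a microtubule end-binding protein, over 398461 bp. Host names rest on the authors' gene models. Within the stretches named Pepd and Mapre2, some rows of the lists also named another gene, such as Clip3 and Rnf125. Whether each of the wide layouts belongs to a single gene was not tested. The name Pnpla2, the triglyceride lipase, was given to a pair of peaks that were both 525 bp long and 436381 bp apart, and Cracr2b was given to a pair 436586 bp apart. The names Ewsr1, Mrpl1 and Rabif each stood on 2 chromosomes. All 5 count among the 73 genes, so some names covered more than 1 locus.

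**Figure D3:**
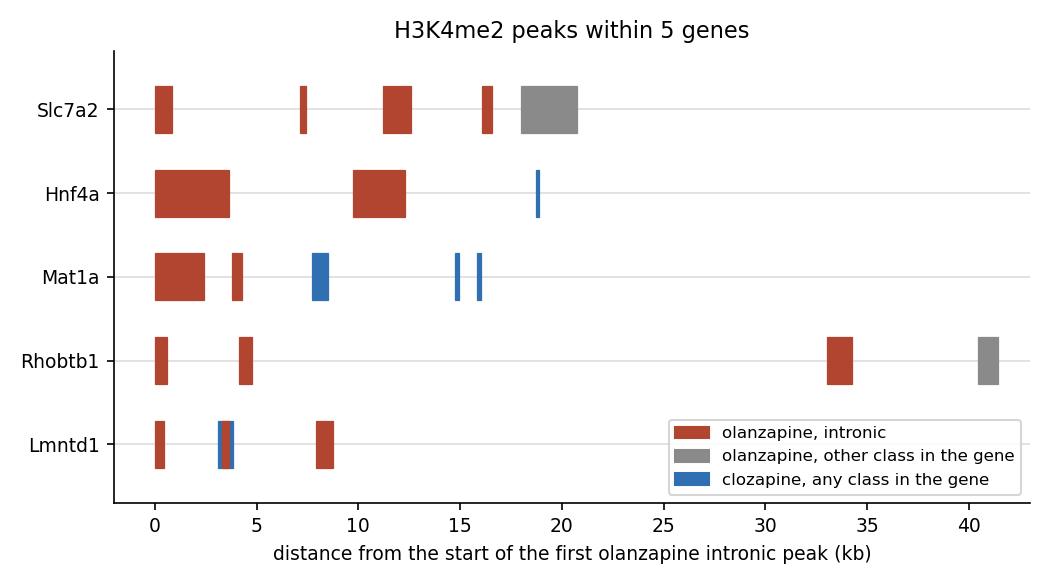
Positions of peaks within 5 genes as the distance from the start of the first olanzapine intronic peak (horizontal axis, kb), with bars to scale. Red bars are olanzapine intronic peaks, grey bars olanzapine peaks of another class in the gene and blue bars clozapine peaks. Slc7a2 carries 4 red bars and a grey 5′ UTR bar of 2777 bp, and Hnf4a the 2 long bars of 3637 and 2597 bp. Mat1a and Hnf4a carry clozapine bars that overlap no olanzapine bar, and in Lmntd1 a clozapine bar covers the second red bar and is drawn behind it.

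Intronic peaks lay closer to other olanzapine peaks than the other classes did. Another olanzapine peak lay within 5000 bp of 210 intronic peaks (21.5%, interval 19.0 to 24.2%), against 10.2% of exonic and splicing peaks, 10.6% of upstream and 5′ UTR peaks and 12.4% of intergenic peaks. The neighbour was intronic in 74 cases, of which 72 were in the same gene, exonic in 88 and upstream or 5′ UTR in 42. No peak of another class in the same gene lay nearer than 793 bp. The gap to the nearest peak of the same gene in an exonic, upstream or 5′ UTR class could be computed for 211 intronic peaks in 180 genes, with a median of 4866 bp (quartiles 1327 and 33789), and it was at most 5000 bp for 106 of them. The other peak was the longer one in 155 of 211, with a median of 820 bp against 380 bp for the intronic peak. The limit on class lengths given above applies here too. In Arg1, the urea cycle arginase, an intronic peak of 1360 bp lay 858 bp from an exonic peak of 2333 bp. In Hp, haptoglobin, an intronic peak of 336 bp lay 861 bp from an exonic peak of 1392 bp. In Glud1, glutamate dehydrogenase, an intronic peak of 303 bp lay 854 bp from an exonic peak of 2871 bp. In Fdps, a farnesyl diphosphate synthase, an intronic peak of 298 bp lay 808 bp from an exonic peak of 1635 bp. Cat, catalase, showed the other order, with an intronic peak of 1071 bp beside an exonic peak of 608 bp.

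Most host genes had no exonic, upstream or 5′ UTR peak. Among the 909 hosts, 723 (79.5%, interval 76.8 to 82.0%) had intronic peaks without these. An exonic peak was also listed in 124 hosts (13.6%, interval 11.6 to 16.0%), against 15.6% of protein-coding genes, a share within that interval. An upstream or 5′ UTR peak was also listed in 66 hosts (7.26%, interval 5.75 to 9.13%), against 7.13% of protein-coding genes. The share among protein-coding genes lay within the interval of the hosts.

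CpG-poor promoters were more frequent among intronic hosts than among genes with other genic peaks and no intronic peak. The measure was the CpG observed over expected ratio in the 300 bp RefSeq window, and below 0.5 a promoter was counted as CpG-poor. CpG-poor promoters made up 143 of 576 (24.8%, interval 21.5 to 28.5%) in hosts with intronic peaks only, against 38.1% of all promoters. They made up 35 of 150 (23.3%, interval 17.3 to 30.7%) in hosts with an intronic and another peak in the gene. The share was 10.4% (interval 8.66 to 12.3%) in genes with an upstream or 5′ UTR peak and no intronic peak and 11.7% (interval 10.4 to 13.0%) in genes with an exonic peak and no intronic peak. It was 47.2% in genes with no olanzapine peak of any class but intergenic. Both groups of intronic hosts thus fell between the genes with other genic peaks but no intronic peak and the genes with no peak of any class but intergenic. The share was similar in hosts with and without another peak in the gene. The letters TATAAA on either strand occurred in 7.12% of the promoters of hosts with intronic peaks only (interval 5.29 to 9.51%) and in 5.04% of those with an upstream or 5′ UTR peak and no intronic peak, and these intervals overlapped.

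**Figure D4:**
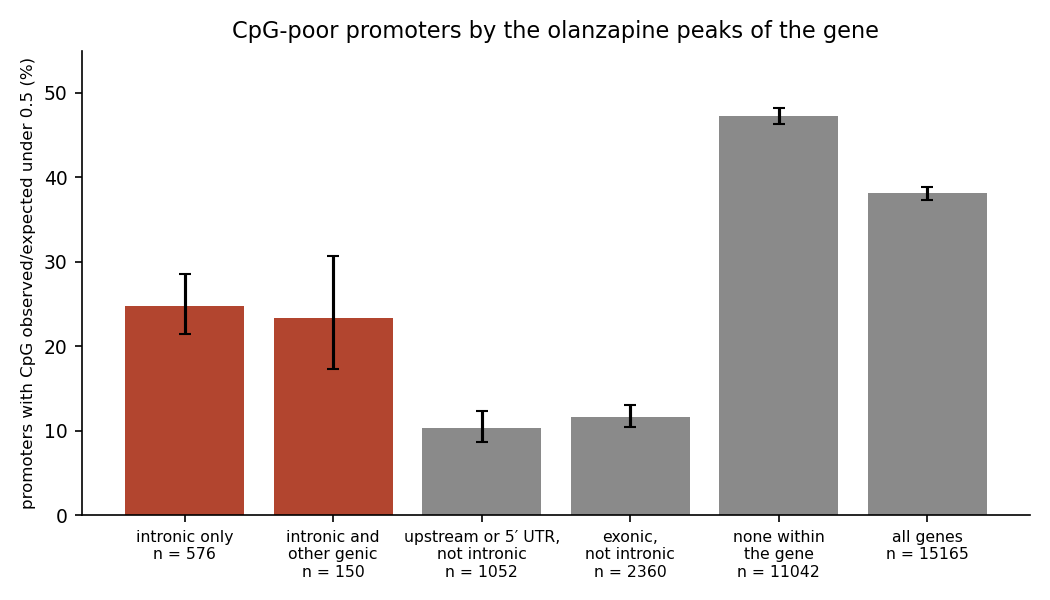
Share of promoters with a CpG observed over expected ratio under 0.5 (vertical axis, %) in groups of genes by their olanzapine peaks, with 95% Wilson intervals as bars. The groups upstream or 5′ UTR and exonic share some genes. Red bars are intronic hosts, at 24.8% and 23.3%, above the 10.4% and 11.7% of genes with other genic peaks and below the 38.1% of all genes.

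Several lists of genes for liver functions held a higher share of intronic hosts than all genes did. Among protein-coding genes 893 of 18539 hosted an olanzapine intronic peak (4.82%). Of 475 genes in 22 lists, 53 did so. Since these genes also had many exonic peaks, the number with a peak of any class but intergenic is given beside the main lists. Among protein-coding genes it was 26.4%. The hepatocyte identity list had 8 intronic hosts of 27 genes (29.6%, interval 15.9 to 48.5%) and 25 genes with a peak of any class but intergenic. Serpina1, the antitrypsin of plasma, carried an intronic peak of 1190 bp at fold enrichment 4.49 (chr6:127619071-127620260). Tat, tyrosine aminotransferase, carried peaks of 435 and 751 bp that lay 275 and 1829 bp from the right edge of the gene. Cps1 carried peaks of 885 and 212 bp, and Pck1, the gluconeogenic carboxykinase, 1 peak of 217 bp at 4.76. Cyp2e1, an ethanol-oxidising cytochrome, Tdo2, which degrades tryptophan, and the Hp and Arg1 genes named above completed the set. The list of liver transcription factors had 4 of 25 (16.0%, interval 6.40 to 34.7%) and 21 genes with a peak of any class but intergenic. These were Hnf4a, Nr5a2, a receptor that regulates bile acid synthesis, with peaks of 196 and 932 bp, Klf15, a regulator of gluconeogenesis, with 474 bp, and Foxa3, a forkhead factor, with 408 bp.

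Lipid synthesis and drug metabolism were the other lists with many hosts. The list of fatty acid and triglyceride synthesis had 8 of 27 (29.6%, interval 15.9 to 48.5%), and 18 of its genes had a peak of any class but intergenic. Srebf1, the sterol response factor that drives lipogenesis, carried 1843 bp at fold enrichment 3.84 (chr10:46580862-46582704). Mlxipl, the carbohydrate response factor, carried 694 bp at 4.57, 1654 bp from a gene edge. Acacb, a mitochondrial acetyl-CoA carboxylase, carried 196 bp at 5.09 and Gpam, which starts glycerolipid synthesis, carried peaks of 272 and 494 bp at 5.40 and 4.89. Acsl1, Elovl6, an elongase, Fads2, a desaturase, and Pnpla2 were the others. Pnpla2, though on this list, is a lipase, and its name was given to peaks far apart, as stated above. A further Fads2 peak stood in a row that also named Incenp. Fatty acid oxidation had 1 host of 23, Acads, a short-chain dehydrogenase, while 16 of its genes had a peak of any class but intergenic. Drug metabolism had 7 hosts of 26 (26.9%, interval 13.7 to 46.1%) and 14 genes with a peak of any class but intergenic. The hosts included Por, Cyp1a1, Arnt, Nat2 and Cyp3a2. Nat2, an acetyltransferase, and Cyp3a2, a cytochrome P450, stood in rows that named a second gene. Por carried its peak 36 bp from the right edge of the gene, and Arnt, the partner of the dioxin receptor, carried 393 bp at 82 bp from the left edge.

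Smaller numbers came from the other lists. Nuclear receptors and coregulators had 6 of 36. Ppara, the fatty acid sensor, carried 350 bp at 3.80. Thrb, a thyroid hormone receptor, Nr3c1, the glucocorticoid receptor, Rxrg, a retinoid X receptor, and Lpin1 were also hosts. The Nr3c1 peak stood in a row that also named Spry4. Bile acid synthesis and transport had 2 of 15, and both carried 2 peaks. Abcb11, the bile salt export pump, carried 1449 bp at 5.04 and 652 bp at 4.50, and Abcc2 carried 701 and 196 bp. Insulin signalling had 3 of 28, which were Insr, the insulin receptor, with 525 bp at 4.06, Gsk3b and Igf1. In the clozapine list 14 of these 28 genes hosted an intronic peak, against 15.6% of protein-coding genes. Cholesterol synthesis and uptake had 3 of 26, Hmgcs1, a synthase of the mevalonate pathway, with 1252 bp, Fdps and Npc1, a lysosomal cholesterol transporter. Glucose production and glycolysis had 2 of 25, among them Pc, pyruvate carboxylase, with 246 bp. The stress response list had 3 of 24, Nfe2l2, the antioxidant response factor, Cat and Nqo1. Cytokine and acute phase signalling had 3 of 23, led by Lbp, the lipopolysaccharide-binding protein, with 213 bp at fold enrichment 7.12, and followed by Stat5b and Tyk2, a transcription factor and a kinase of cytokine signalling. The circadian list had 1 of 17, Nfil3, a repressor, with 1689 and 424 bp, and the housekeeping list had 2 of 20, B2m and Tfrc, which encode a light chain of class I antigen-presenting molecules and the transferrin receptor. None of 21 genes of the H3K4 methylation machinery and none of 26 receptors bound by antipsychotics hosted an olanzapine intronic peak. For the receptors this allows a share of up to 11.5%, again at 3 counts of the total. The upper Wilson limits were 15.5% and 12.9%. Both lie above the 4.82% of protein-coding genes, so neither list is shown to differ from that share.

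No listed marker of other liver cells or neurons was among the hosts. Genes outside these lists were not sorted by cell type. None of 89 markers of endothelium, stellate cells, macrophages, lymphocytes, cholangiocytes and neurons hosted an olanzapine intronic peak, which allows a share of up to 3.37%, at 3 counts of the total. In the clozapine list 10 of 89 did so, beside 15.6% of protein-coding genes. A peak of any class but intergenic was listed for 5 of these markers in the olanzapine list, beside 26.4% of protein-coding genes, and for 36 in the clozapine list, beside 27.4%.

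**Figure D5:**
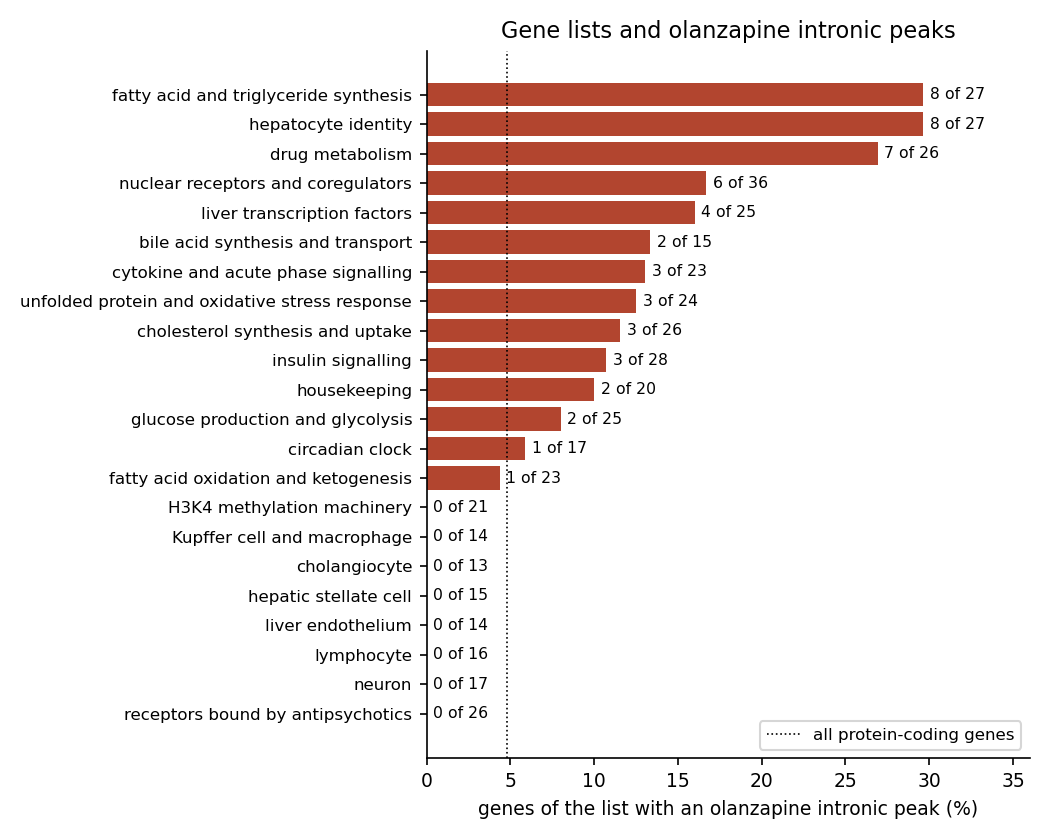
Share of the genes of each list that hosted an olanzapine intronic peak (horizontal axis, %), with the number of hosts and of genes beside each bar. The dotted line marks the 4.82% of protein-coding genes. Fatty acid and triglyceride synthesis and hepatocyte identity stand highest, with 8 of 27 each, and the markers of other cell types and the antipsychotic receptors stand at 0.

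Genes with only intronic peaks were part of the authors' pathway analysis. The deposited enrichment input held 461 of 583 genes named by intronic peaks and by no olanzapine peak of any other class, intergenic included (79.1%, interval 75.6 to 82.2%), close to the 81.0% of genes with an exonic peak, and 2 of 1643 genes with intergenic peaks only (0.122%). Of 2028 genes in the KEGG input, 387 hosted an intronic peak (19.1%). The share was 104 of 476 in metabolic pathways (21.8%, interval 18.4 to 25.8%). It was 12 of 27 in chemical carcinogenesis (44.4%, interval 27.6 to 62.7%), with Adh5, an alcohol dehydrogenase, Cyp2c7 and Cyp2c22, cytochromes P450, and Gstt1, Mgst1 and Mgst3, glutathione transferases. It was 12 of 28 in complement and coagulation cascades (42.9%, interval 26.5 to 60.9%), with C9, a component of the membrane attack complex, F10 and F11, coagulation factors, Plg, plasminogen, and Proc, protein C. It was 16 of 39 in biosynthesis of amino acids (41.0%, interval 27.1 to 56.6%), with Cbs, which makes cystathionine, Glul, glutamine synthetase, and Shmt1, a serine hydroxymethyltransferase. These 3 pathways were picked after the values were seen. Other pathways had higher or lower shares, such as 10 of 21 in metabolism of xenobiotics by cytochrome P450 (47.6%) and 1 of 24 in proteasome (4.17%).

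Few olanzapine intronic peaks overlapped a clozapine peak, while host genes were shared more often. An overlap of at least 1 bp with a clozapine peak was found for 10 of 977 olanzapine intronic peaks (1.02%, interval 0.557 to 1.87%), against 2.34% of all olanzapine peaks. The clozapine peak was intronic in 9 of them and exonic in Cd47, a surface protein that inhibits phagocytosis. The highest fold enrichments were in Sfmbt1, a Polycomb-related protein, with 7.12 for olanzapine and 3.09 for clozapine, and in Myo3b, a myosin, with 7.03 for olanzapine and 5.73 for clozapine. Alg14, of protein glycosylation, had 5.29 for olanzapine and 3.96 for clozapine, with a shared stretch of 817 bp. Cacnb2, a calcium channel subunit, Nell1, a secreted protein, Dclre1c, a nuclease of DNA repair, Smarcd3, a chromatin remodelling subunit, Lmntd1 and Lrrtm3, a synaptic protein, were the others. At the level of genes, 292 of 909 olanzapine hosts (32.1%, interval 29.2 to 35.2%) also hosted a clozapine intronic peak, and these were 9.92% of 2943 clozapine host names. Among protein-coding genes 15.6% hosted a clozapine intronic peak, a lower share than among the olanzapine hosts. Gene span was not matched in this comparison. In Hnf4a the clozapine peak, 171 bp long, lay beyond both olanzapine peaks.

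The share of intronic peaks varied among chromosomes. It was highest on chromosome 16, with 44 of 204 olanzapine peaks (21.6%, interval 16.5 to 27.7%), and on chromosome 20, with 45 of 231 (19.5%, interval 14.9 to 25.1%). It was lowest on chromosome 10, with 69 of 602 (11.5%, interval 9.16 to 14.3%). Intronic peaks were densest on chromosome 20, at 0.801 per Mb, and least dense on chromosomes 4 and 15, at 0.261 per Mb.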

How the data were processed

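Liver H3K4me2 ChIP-seq libraries of 1 olanzapine, 1 clozapine and 1 vehicle rat were made. The authors sheared cross-linked chromatin, aligned reads to Rnor_6.0 with BWA and listed peaks. The peak caller, its control and the gene annotation are not given in the sources used here. The deposited lists give each peak's fold enrichment (a ratio), the −log10 of its p-value and q-value, a class and a gene. The authors' GO and KEGG tables give the count of input genes per term. Their p-values were not used.

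Peaks of chromosomes 1 to 20 were grouped by class. Shares carry 95% Wilson intervals. No test was made, since each drug had 1 library. Gene edges were recovered from the authors' distances, and 70 names whose edges differed by more than 10 bp were dropped. Symbols were matched to RefSeq (GRCr8), which also gave the promoter windows, and no coordinate of that build was set against the peaks. No genome of the files' build was used, so peak sequences are not shown.

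The members and the 22 gene lists were chosen with earlier results of these data known. Genes named were the 12 strongest and 10 longest peaks, up to 4 per list and the 8 strongest overlaps. The 12 genes with most peaks naming 1 gene were added, plus examples marked as chosen later. For lists with more than 4 hosts the remaining hosts were named after their values were seen. A few of the genes chosen this way are left out here. Steps were checked on simulated data. Software was matplotlib 3.10.9, scipy 1.17.1, pandas 2.3.3 and numpy 2.4.6 under Python 3.11.15.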

Additional observations from a re-analysis of the deposited data

Results flagged for a closer look

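Chromosome X lay outside the comparisons, which used chromosomes 1 to 20. It held 14 olanzapine intronic peaks among 109 olanzapine peaks (12.8%, interval 7.81 to 20.4%). Their median length was 416 bp (range 196 to 889) and their median fold enrichment was 4.23 (range 3.79 to 5.53). No peaks of the vehicle library were set beside this count.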

How the results depend on the processing

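With a −log10 q of at least 5 the list kept 39 intronic peaks in 37 host genes, 2 genes with at least 2 intronic peaks, 2 overlaps with a clozapine peak, 0 hosts with an upstream or 5′ UTR peak and 1 list gene, and the gap to the nearest peak of the same gene gave no value. With a fold enrichment of at least 5 it kept 175 peaks in 173 hosts, 6 genes with at least 2 peaks, 5 overlaps, 2 hosts with an upstream or 5′ UTR peak, a median gap of 11745 bp and 9 list genes. Fewer peaks enter under both thresholds by construction. Counting clozapine peaks within 1000 bp as overlaps gave 35. Counting exonic peaks as well gave 186 hosts with another peak in the gene, and counting any class but intergenic gave 231 list genes. With at least 1 known edge in place of both, 30.7% of intronic peaks lay within 1000 bp of an edge. The other 5 alternatives for the edge gave 38.5 to 47.0%, the lowest of them from 13 peaks with edges from the olanzapine list alone, and all 6 were chosen after seeing the data. In all 24 values, these 5 and those for peaks longer than 200 bp included, stayed within 1.5 times the value reported. No paired analysis was possible because each group had 1 library. The number of reads behind a peak is unknown, so a peak missing from a list is not shown to be absent.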
